A study of Mus musculus with 86 samples.

Results

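The hypothalamus of wild house mice was compared with the prefrontal cortex and the hippocampus of the same animals, to describe which genes and functions mark it and how stable they were from animal to animal. All 28 hypothalamus libraries of the 86 libraries in the series were used, and each was set against the cortex and hippocampus libraries with the same animal number, which gave 84 libraries of 28 animals. Animal 18 has no hypothalamus library and was left out. The mice were free-living and untreated, and were chosen for a consistently large or small social network size, which is the number of different partners met in nest boxes per day. There were 7 females and 7 males with large and 7 females and 7 males with small network sizes. The labels name no age or strain. Regions had been punched out of frozen brains, and each library held the RNA of 1 region of 1 animal.

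The hypothalamus lies at the base of the forebrain and is made of many small nuclei that govern feeding, water balance, body temperature, sleep, reproduction and, through the pituitary, the release of hormones. Its neurons are known for a great variety of neuropeptides, which are cut from larger precursors, kept in dense-core vesicles and act on receptors of other neurons. Most hypothalamic neurons release GABA, or glutamate packed into vesicles by the transporter VGLUT2 (Slc17a6), whereas the principal neurons of cortex and hippocampus use VGLUT1 (Slc17a7).

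Levels are CPM, counts scaled to a common library size after normalization across the 84 libraries. A log2 difference, unless another is named, is that of the hypothalamus from the mean of cortex and hippocampus, with its standard error (SE), and adjusted p-values come from edgeR's quasi-likelihood test with the animal as a block. Of 18753 genes tested, 7563 (40.3%) were higher and 7450 (39.7%) lower in the hypothalamus at an adjusted p under 0.05. Against the cortex alone 7907 (42.2%) were higher and 7327 (39.1%) lower, and against the hippocampus alone 6872 (36.6%) were higher and 7399 (39.5%) lower. Since so many genes passed, a gene was called marked only where it also differed at least 2-fold from each of the other regions. This left 785 genes (4.19%) marked higher and 654 (3.49%) marked lower in the hypothalamus. With 28 animals a difference in level that passes the test can be small, and in punches of bulk tissue fewer cells of a type and less RNA per cell cannot be told apart.

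Total counts ran from 34308285 to 81865801 in the hypothalamus, 33844651 to 75114784 in the cortex and 33711824 to 53962278 in the hippocampus. A few punches stood apart, and their values are given beside the genes they touch. The hypothalamus of animal 10, a male with small network size, was the lowest of all for Pmch, Hcrt, Avp and Oxt. That of animal 6, also a male with small network size, had a summed level of 8 thalamus markers of 990.0 CPM, where the next library had 402 CPM and the median was 131 CPM. The hippocampus of animal 7 held more Avp, Hcrt and Pmch than any other hippocampus library.

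The region was checked by 5 genes for peptides that are made almost only in the hypothalamus. Oxt and Avp encode oxytocin and vasopressin, the hormones of the paraventricular and supraoptic nuclei. Hcrt (orexin) and Pmch (melanin-concentrating hormone) belong to neurons of the lateral hypothalamus that promote feeding, and Agrp to hunger neurons of the arcuate nucleus. Avp and Oxt are neighbours on chromosome 2, on opposite strands with 3565 bases between them. The 250 bases before the start of the 4 of these genes with the largest log2 differences are shown. They carry the strongest marks among the genes ranked further on, which have a mean of at least 5 CPM, and Avp and Oxt varied together over animals. They are RefSeq sequences of GRCm38.p6, written 5′ to 3′ on the strand of the gene, and capitals mark matches to 4 short motifs that were chosen after the windows had been seen.
Oxt, chr2:130575919-130576168: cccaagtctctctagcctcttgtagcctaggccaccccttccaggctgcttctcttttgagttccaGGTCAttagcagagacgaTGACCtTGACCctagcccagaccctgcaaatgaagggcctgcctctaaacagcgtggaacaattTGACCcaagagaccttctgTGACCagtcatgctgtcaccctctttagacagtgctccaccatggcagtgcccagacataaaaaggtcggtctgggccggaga
Avp, chr2:130582589-130582838: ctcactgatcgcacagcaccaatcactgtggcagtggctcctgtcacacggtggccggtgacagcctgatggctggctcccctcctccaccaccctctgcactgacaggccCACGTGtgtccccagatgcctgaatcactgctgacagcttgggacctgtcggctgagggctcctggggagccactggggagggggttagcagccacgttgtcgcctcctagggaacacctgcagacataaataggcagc
Hcrt, chr11:100762932-100763181: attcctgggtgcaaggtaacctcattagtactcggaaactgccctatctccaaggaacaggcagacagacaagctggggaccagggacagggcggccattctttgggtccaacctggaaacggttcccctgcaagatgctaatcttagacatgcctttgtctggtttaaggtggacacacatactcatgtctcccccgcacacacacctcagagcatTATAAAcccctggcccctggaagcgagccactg
Pmch, chr10:88090822-88091071: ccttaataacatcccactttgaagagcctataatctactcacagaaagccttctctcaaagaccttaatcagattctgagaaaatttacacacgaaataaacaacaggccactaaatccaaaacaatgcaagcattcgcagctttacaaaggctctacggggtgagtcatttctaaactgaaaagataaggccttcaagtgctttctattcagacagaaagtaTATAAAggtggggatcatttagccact

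All 4 motifs were searched on both strands. The first was GGTCA, a site that many nuclear receptors bind as a pair of copies. It was found at 5 places in the Oxt window, and a match on the other strand is printed there as TGACC. The E-box was searched as CACGTG, a sequence bound by basic helix-loop-helix factors. For the core of a TATA box the letters were TATAAA in the sense of the gene or its reverse. The last was TAATTA, which many homeodomain proteins bind and which none of the 4 windows held. CACGTG lay 134 to 139 bases before the start of Avp, and TATAAA 28 to 33 bases before that of Hcrt and 22 to 27 bases before that of Pmch. Of the 32851 promoters in the table, windows of the same length held GGTCA in 35.2%, CACGTG in 6.02%, TATAAA in 12.4% and TAATTA in 4.84%. Among the promoters of the genes tested here the shares were 33.7%, 7.66%, 7.15% and 2.94% in the same order, and 556 of the 785 genes marked higher had a promoter in the table. Their promoters held GGTCA in 38.5%, CACGTG in 5.77%, TATAAA in 10.8% and TAATTA in 3.79%. For the genes marked lower, of which 417 had a promoter, the shares were 31.7%, 6.58%, 10.7% and 5.52%. A match is a description of the letters and not a binding site.

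All 5 peptide genes were higher in the hypothalamus. Oxt (ENSMUSG00000027301, chromosome 2 of GRCm38 from 130576173 to 130577054) lay between 28 and 352 CPM in the hypothalamus with a median of 182 CPM, between 0.0178 and 0.860 CPM in the cortex and between 0.180 and 6.12 CPM in the hippocampus. Its log2 difference was 8.19 (SE 0.18, edgeR adjusted p = 2.23e-46), a 291-fold difference. Every hypothalamus library was above every other library, a separation found in 2.99% of the genes tested.

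Hcrt (ENSMUSG00000045471, chromosome 11 from 100761069 to 100762931) ran from 10.5 to 166 CPM in the hypothalamus with a median of 103 CPM, at most 0.571 CPM in the cortex and at most 9.69 CPM in the hippocampus. The groups did not overlap, although the lowest hypothalamus library, that of animal 10, was close to the hippocampus of animal 7. The log2 difference of Hcrt was 7.94 (SE 0.20, edgeR adjusted p = 2.47e-43). Pmch (ENSMUSG00000035383, chromosome 10 from 88091072 to 88092375) ran from 7.93 to 71.0 CPM with a median of 56.9 CPM, against at most 0.348 CPM in the cortex and 8.23 CPM in the hippocampus. Only these extremes overlapped, again those of animals 10 and 7. The log2 difference of Pmch was 7.52 (SE 0.17, edgeR adjusted p = 7.49e-45). In the annotation, exons of Pmch share 58.1% of their bases with those of Parpbp on the opposite strand, and reads of the 2 genes cannot be told apart where the counting did not use strand, which is not given in the sources used here.

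Avp (ENSMUSG00000037727, chromosome 2 from 130580620 to 130582554) varied most of the 5 over animals. It ran from 36 to 854 CPM in the hypothalamus with a median of 465 CPM, from 0.0318 to 2.43 CPM in the cortex and from 0.750 to 56.9 CPM in the hippocampus. Within each animal the hypothalamus was nevertheless above both other regions. The hippocampus library of animal 7 was above the lowest hypothalamus library, and without that hippocampus library the highest was at 13 CPM. The log2 difference of Avp was 7.88 (SE 0.25, edgeR adjusted p = 4.08e-37).

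Agrp (chromosome 8 from 105566698 to 105637393) had the smallest difference, 1.74 (SE 0.09, edgeR adjusted p = 7.15e-26). It ran from 1.39 to 8.05 CPM in the hypothalamus with a median of 3.14 CPM, from 0.644 to 1.49 CPM in the cortex and from 0.503 to 1.45 CPM in the hippocampus. The ranges overlapped at the lower end of the hypothalamus, which was above both other regions in 27 of 28 animals. Exons of Agrp share 11.3% of their bases with Ctcf, a gene of the opposite strand that is used in all cells. Per kilobase of exon, the median hypothalamus levels were 805 CPM for Avp, 339 CPM for Oxt, 137 CPM for Hcrt, 76.0 CPM for Pmch and 3.10 CPM for Agrp.

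**Figure D1:**
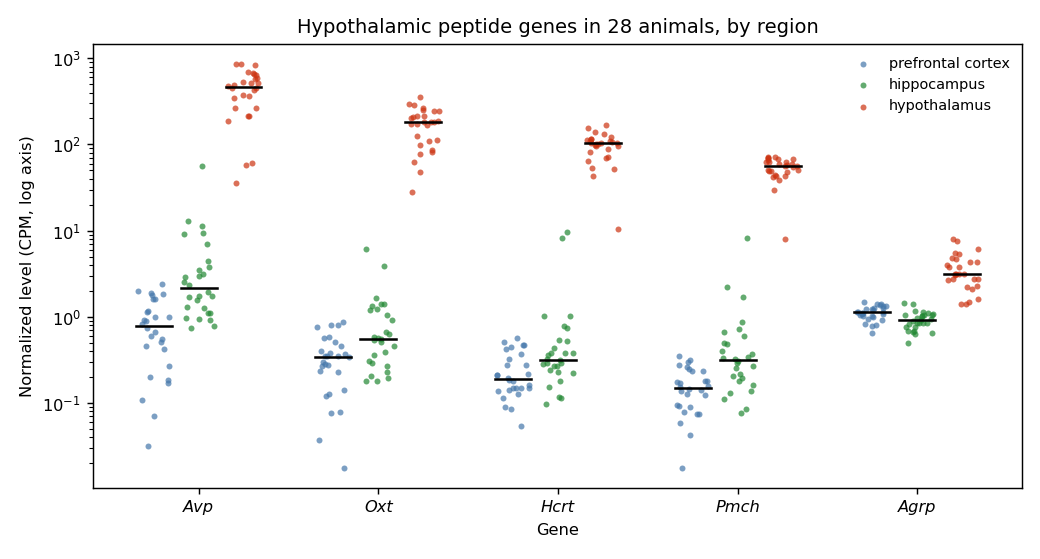
Levels of Avp, Oxt, Hcrt, Pmch and Agrp in the prefrontal cortex, hippocampus and hypothalamus of 28 animals, in CPM on a log axis. Each point is 1 library and the line is the median of 28, and the hypothalamus median is highest for each gene, with Avp at 465 CPM and Agrp at 3.14 CPM.

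The peptides as a group were marked in the hypothalamus. Of 32 genes for hypothalamic neuropeptides, Kiss1 was not analysed here, and of the 31 tested 26 were higher, 4 lower and 1 not different at an adjusted p under 0.05. Of these, 23 were marked higher and 3 marked lower, and 20 were highest in the hypothalamus of all 28 animals. The median log2 difference of the list was 2.75, against 0.003 over all genes tested. Among all genes tested 40.3% were higher, 39.7% lower, 4.19% marked higher and 3.49% marked lower. The counts of every list below are to be set against these shares. The summed level of the list lay between 582 and 2520 CPM in the hypothalamus with a median of 1810 CPM, and did not exceed 955 CPM in the cortex or 751 CPM in the hippocampus. The lowest hypothalamus sums were those of animal 10 with 582 CPM and animal 6 with 1050 CPM.

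Peptides of the feeding circuits differed widely in size. Gal (galanin) ran from 7.69 to 44.0 CPM in the hypothalamus, with medians of 0.239 CPM in the cortex and 0.499 CPM in the hippocampus, and its log2 difference was 5.92 (SE 0.11). Cartpt, the precursor of the satiety peptide CART, ran from 26.3 to 116 CPM against medians of 9.20 and 5.87 CPM, a log2 difference of 3.33 (SE 0.08). Both were higher in 28 of 28 animals. Pomc, from which arcuate neurons cut the satiety peptide alpha-MSH, had a log2 difference of 3.11 (SE 0.21) but was highest in the hypothalamus of 26 animals only. Its hypothalamus levels ran from 3.38 to 50.6 CPM, and the hippocampus of animal 21 held 33.7 CPM.

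Among the releasing hormones that act on the pituitary, Trh (thyrotropin-releasing hormone) ran from 37.3 to 94.8 CPM in the hypothalamus, with a log2 difference of 3.90 (SE 0.11). Ghrh (growth hormone-releasing hormone) reached only 1.26 to 7.12 CPM, but its cortex and hippocampus medians were 0.0276 and 0.144 CPM, and the log2 difference was 4.83 (SE 0.15). With the other regions so near 0, the size of this difference depends on the prior count of the fit. Gnrh1, which drives the gonads, ran from 2.42 to 5.56 CPM, with a log2 difference of 2.75 (SE 0.08). Crh (corticotropin-releasing hormone) differed by 0.96 (SE 0.06), less than 2-fold, with medians of 5.71 CPM in the cortex, 3.50 CPM in the hippocampus and 8.52 CPM in the hypothalamus.

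The opioid and tachykinin precursors were abundant in all 3 regions and still higher in the hypothalamus. Penk (enkephalin) had medians of 41.7 CPM in the cortex, 49.0 CPM in the hippocampus and 213 CPM in the hypothalamus, and Pdyn (dynorphin) 30.2, 18.4 and 103 CPM in the same order. Both are also made by neurons of the striatum, whose markers are given further on. Tac1 (substance P) had a log2 difference of 2.35 (SE 0.10) and Tac2 (neurokinin B) of 1.61 (SE 0.06).

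The 4 peptide genes that were lower in the hypothalamus, Cck, Vip, Grp and Npy, are also made by neurons of the cortex and hippocampus. Cck (cholecystokinin) had medians of 388 CPM in the cortex and 233 CPM in the hippocampus, against 17.2 to 95.3 CPM in the hypothalamus, a log2 difference of -3.04 (SE 0.10). Vip, a peptide of the circadian clock, had a log2 difference of -2.48 (SE 0.09) and ran from 2.42 to 12.5 CPM in the hypothalamus. Grp was marked lower as well, with a log2 difference of -1.63 (SE 0.05). Npy, the partner of Agrp in hunger neurons, was lower by less than 2-fold, with a log2 difference of -0.90 (SE 0.07). The level of Sst (somatostatin) was nearly equal, with medians of 158 CPM in the cortex, 156 CPM in the hippocampus and 176 CPM in the hypothalamus.

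Very low genes could still mark the region. Npvf, whose peptide restrains reproduction, reached 0.0805 to 1.60 CPM in the hypothalamus, with medians of 0.0167 CPM in the cortex and 0.0106 CPM in the hippocampus. Nmu and Nms (neuromedins U and S) had hypothalamus medians of 0.444 and 0.904 CPM. All 3 were higher in the hypothalamus of 28 of 28 animals, at levels where the log2 difference depends on the prior count of the fit and is left out.

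**Figure D2:**
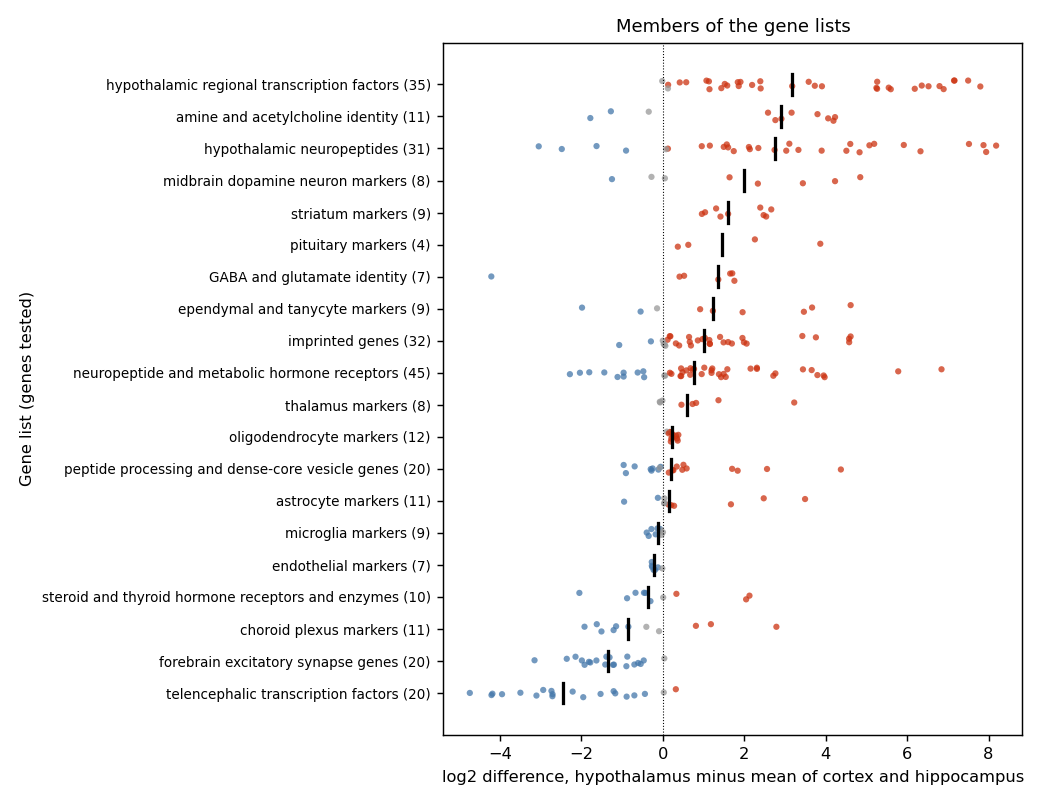
Log2 difference of the hypothalamus from the mean of cortex and hippocampus for the members of 20 gene lists, sorted by the list median (black line). Each point is 1 gene, red where it was higher and blue where it was lower at an adjusted p under 0.05 and grey otherwise, and the medians run from 3.18 for hypothalamic transcription factors to -2.46 for telencephalic ones.

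The receptors of these peptides and of metabolic hormones were higher in many cases. Of the 47 receptor genes listed, Galr3 was not analysed here and Avpr1b was too low to test. Of the 45 tested, 33 were higher, 10 lower and 2 not different, and 16 were marked higher and 4 marked lower, with a median log2 difference of 0.77. Calcr, the calcitonin and amylin receptor, ran from 10.7 to 29.3 CPM in the hypothalamus, at most 0.281 CPM in the cortex and at most 0.975 CPM in the hippocampus, without overlap. Its log2 difference was 6.85 (SE 0.12, edgeR adjusted p = 4.48e-51). Brs3, an orphan receptor of energy balance on chromosome X, ran from 2.21 to 4.96 CPM against at most 0.128 and 0.299 CPM in the other regions.

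Receptors of hormones that reach the brain by the blood were among those marked higher. Ghsr (the ghrelin receptor) ran from 2.83 to 8.59 CPM in the hypothalamus, with a log2 difference of 3.98 (SE 0.09). Prlr (the prolactin receptor) ran from 15.3 to 46.7 CPM, with a log2 difference of 3.80 (SE 0.09) and medians of 0.477 CPM in the cortex and 7.09 CPM in the hippocampus. Glp1r had a log2 difference of 2.16 (SE 0.10). The leptin receptor Lepr differed by only 0.45 (SE 0.06) and was highest in the hypothalamus of 20 of 28 animals, and the insulin receptor Insr by 0.21 (SE 0.02).

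Ligand and receptor did not always go together. Mc3r, a receptor of the melanocortins made from Pomc, had a log2 difference of 3.44 (SE 0.11), while Mc4r, the other melanocortin receptor of the brain, differed by 0.68 (SE 0.06). Avpr1a (the main brain vasopressin receptor) had a log2 difference of 3.66 (SE 0.08), and Oxtr (the oxytocin receptor) of 0.44 (SE 0.05). The orexin receptors Hcrtr1 and Hcrtr2 differed by 1.55 (SE 0.08) and 1.22 (SE 0.06). For Mchr1, the receptor of the Pmch peptide, no difference was found, with a log2 value of 0.04 (SE 0.05, edgeR adjusted p = 0.472) and medians of 21.3 CPM in the cortex, 19.4 CPM in the hippocampus and 21.7 CPM in the hypothalamus. Cckbr and Vipr1, receptors of Cck and Vip, were marked lower, with log2 differences of -2.03 (SE 0.05) and -2.28 (SE 0.09). Other receptors of the same peptides were higher, Cckar with a log2 difference of 5.99 (SE 0.09) and Vipr2 with 0.49 (SE 0.11).

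The machinery that cuts and stores peptides was used in all 3 regions. Of 20 such genes, 11 were higher, 8 lower and 1 not different, and 4 were marked higher, with a median log2 difference of 0.20. With 40.3% of all genes tested higher and 39.7% lower, the counts of higher and lower genes say little about this list. The summed level was 6530 to 8050 CPM in the hypothalamus, 6290 to 7520 CPM in the cortex and 6160 to 7200 CPM in the hippocampus, so the ranges overlapped. The prohormone convertases Pcsk1 and Pcsk2 differed by 0.26 (SE 0.04) and -0.90 (SE 0.02). The 4 marked genes were Baiap3, a regulator of dense-core vesicle release, Resp18, Scg2 (secretogranin II) and Qpct, which modifies peptide ends. Baiap3 ran from 292 to 489 CPM in the hypothalamus against medians of 8.27 CPM in the cortex and 39.98 CPM in the hippocampus, a log2 difference of 4.37 (SE 0.07).

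Transcription factors that pattern the hypothalamus were largely higher. Of 36 listed, Rax was too low to test, and of the 35 others 33 were higher, 0 lower and 2 not different, with 21 marked higher. The median log2 difference of the list was 3.18. Sim1 and Otp are factors of the paraventricular nucleus. Sim1 ran from 5.54 to 14.7 CPM in the hypothalamus against at most 0.0634 CPM in the cortex and 0.537 CPM in the hippocampus, with a log2 difference of 7.15 (SE 0.14). With cortex levels so near 0 the size depends on the prior count, and the mean within-animal difference of Sim1 was 6.39. Otp ran from 12.5 to 43.0 CPM against at most 0.239 and 1.63 CPM, with a log2 difference of 6.80 (SE 0.12). For both genes the hypothalamus libraries lay above all others.

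Nkx2-1, required for the ventral hypothalamus, ran from 13.8 to 33.6 CPM, with a log2 difference of 5.60 (SE 0.10). Nr5a1 and Fezf1, factors of the ventromedial nucleus, had hypothalamus medians of 6.06 and 9.57 CPM and log2 differences of 5.25 (SE 0.16) and 6.36 (SE 0.24). Isl1, used in arcuate neurons, had a log2 difference of 5.26 (SE 0.14). The paired genes Hmx2 and Hmx3 and the optic and hypothalamic factor Six6 were detected at medians of 1.44, 3.61 and 2.79 CPM and had a median of 0 CPM in the cortex.

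Some factors of the list were shared with the hippocampus punch. Lhx9 had a median of 19.7 CPM in the hippocampus against 6.57 CPM in the hypothalamus and 0.168 CPM in the cortex, and was highest in the hypothalamus of 1 animal. Barhl1 and Sox14 were highest there in 5 and 11 animals. Tcf7l2, Gbx2 and Prkcd, which mark the thalamus, had hippocampus medians of 50.0, 1.64 and 93.3 CPM, and their part in these values was not tested. Meis2 and Pou3f2 did not pass the test (edgeR adjusted p = 0.0526 and 0.785).

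Transcription factors of the telencephalon were largely lower. Of 20 such factors of the part of the brain that forms cortex and hippocampus, 18 were lower, 1 higher and 1 not different, and 15 were marked lower, with a median log2 difference of -2.46. The summed level was 498 to 823 CPM in the hypothalamus against 2420 to 3200 CPM in the cortex and 1660 to 2330 CPM in the hippocampus, without overlap. Neurod6, a factor of excitatory cortical neurons, ran from 0.997 to 8.66 CPM in the hypothalamus, 43.6 to 108 CPM in the cortex and 72.3 to 138 CPM in the hippocampus. Its log2 difference was -4.74 (SE 0.15, edgeR adjusted p = 7.48e-38), the largest among the named genes that were lower. Neurod2 and Emx1, factors of the same lineage, had log2 differences of -4.20 (SE 0.14) and -4.18 (SE 0.12).

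Genes of the excitatory forebrain synapse were lower too. Of 20, 19 were lower, 0 higher and 1 not different, and 13 were marked lower, with a median log2 difference of -1.34. Nrgn (neurogranin) ran from 109 to 288 CPM in the hypothalamus, with medians of 2064 CPM in the cortex and 980 CPM in the hippocampus, a log2 difference of -3.15 (SE 0.06). Camk2a, the alpha subunit of the calcium-dependent kinase of the synapse, had a log2 difference of -1.92 (SE 0.04), and Camk2b, the beta subunit, of -0.47 (SE 0.02). The NMDA receptor subunits Grin2a and Grin2b were marked lower, with log2 differences of -2.14 (SE 0.08) and -1.20 (SE 0.05). Gria1, an AMPA receptor subunit, did not pass the test, with medians of 355 CPM in the cortex, 582 CPM in the hippocampus and 470 CPM in the hypothalamus.

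Of 7 genes that set whether a neuron is GABAergic or glutamatergic, 6 were higher and 1 lower, and 3 were marked higher and 1 lower. Slc17a7 (chromosome 7 from 45163949 to 45176142) ran from 11 to 281 CPM in the hypothalamus, from 1375 to 2147 CPM in the cortex and from 925 to 1406 CPM in the hippocampus. The groups were far apart, with a log2 difference of -4.21 (SE 0.19, edgeR adjusted p = 2.16e-29), and the hypothalamus libraries differed widely among themselves. Slc17a6 ran from 108 to 299 CPM in the hypothalamus, with medians of 23.5 CPM in the cortex and 116 CPM in the hippocampus, and a log2 difference of 1.76 (SE 0.07). Slc17a8, the rarer transporter VGLUT3, had a log2 difference of 1.66 (SE 0.04).

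The enzymes and transporter of GABA neurons varied little. Gad2 ran from 471 to 799 CPM in the hypothalamus, 162 to 231 CPM in the cortex and 164 to 230 CPM in the hippocampus, without overlap, and its log2 difference was 1.71 (SE 0.02, edgeR adjusted p = 8.14e-56). Gad1, which makes the same product, differed by only 0.53 (SE 0.02). Slc32a1, which packs GABA into vesicles, had a log2 difference of 1.36 (SE 0.03).

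Of 11 genes of amine and acetylcholine neurons, 8 were higher, 2 lower and 1 not different, and 8 were marked higher and 1 marked lower, with a median log2 difference of 2.92. Hdc, the enzyme of the histamine neurons of the tuberomammillary nucleus, ran from 4.99 to 30.5 CPM in the hypothalamus, with a log2 difference of 2.92 (SE 0.10). Th and Ddc, enzymes of dopamine synthesis, ran from 17.1 to 82.5 CPM and from 21.8 to 81.0 CPM, with log2 differences of 3.16 (SE 0.14) and 2.77 (SE 0.08). Slc6a3, the dopamine transporter, ran from 1.05 to 127 CPM in the hypothalamus and up to 23.8 CPM in the hippocampus, and was highest in the hypothalamus of 23 animals. Dbh and Tph2, which mark noradrenaline and serotonin neurons of the brainstem, were lower and had hypothalamus medians of 0.0962 and 0.406 CPM.

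Of 8 markers of midbrain dopamine neurons, Slc6a3 among them, 5 were higher, 1 lower and 2 not different. Their summed hypothalamus level ran from 22.2 CPM in animal 22 to 214 CPM in animal 23, with a median of 61.8 CPM, against a median of 92.6 CPM in the hippocampus and 44.0 CPM in the cortex. Among the defining ones, Foxa2 and Pitx3 had hypothalamus medians of 0.458 and 0.325 CPM and En1 of 0.791 CPM. Nr4a2 was lower, with a log2 difference of -1.25 (SE 0.08), and En2 and Aldh1a1 did not pass the test (edgeR adjusted p = 0.168 and 0.597). The 4 highest libraries for Slc6a3, those of animals 23, 21, 13 and 30 with 127, 120.0, 98.8 and 98.2 CPM, were far above the median of 15.7 CPM. The part of midbrain tissue in these values was not tested.

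Chat, Slc18a3 and Slc5a7, the enzyme and transporters of acetylcholine neurons, were marked higher, with log2 differences of 4.19 (SE 0.11), 4.06 (SE 0.12) and 3.80 (SE 0.11). Chat ran from 9.10 to 25.5 CPM in the hypothalamus, with medians of 0.736 CPM in the cortex and 0.998 CPM in the hippocampus. Lhx8, a factor of forebrain acetylcholine neurons, ran from 12.5 to 25.2 CPM against at most 1.10 and 1.06 CPM, with a log2 difference of 6.53 (SE 0.15). All 9 striatum markers were also higher, 6 of them marked, with a median log2 difference of 1.61. Their summed level was 434 to 1600 CPM in the hypothalamus, 243 to 958 CPM in the cortex and 194 to 381 CPM in the hippocampus. Drd2 and Adora2a had log2 differences of 2.54 (SE 0.14) and 2.67 (SE 0.18), and Drd1 was highest in the hypothalamus of 25 of 28 animals. Whether striatal tissue in the punches took part in the levels of Chat, Lhx8, Isl1, Penk or Pdyn was not tested.

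Receptors and enzymes of steroid and thyroid hormones went in both directions. Of 11, Cyp19a1 was too low to test, and of the other 10, 3 were higher, 6 lower and 1 not different. As 40.3% of all genes tested were higher and 39.7% lower, these counts do not set so short a list apart. The estrogen receptors Esr1 and Esr2 were marked higher in all 28 animals, with log2 differences of 2.05 (SE 0.07) and 2.13 (SE 0.10). Esr1 ran from 8.94 to 24.2 CPM in the hypothalamus, with medians of 2.75 CPM in the cortex and 4.16 CPM in the hippocampus. The progesterone receptor Pgr differed by -0.42 (SE 0.03). Dio2, which activates thyroid hormone in glia, was marked lower, with a log2 difference of -2.05 (SE 0.06), and ran from 7.90 to 18.8 CPM in the hypothalamus against medians of 64.8 and 41.0 CPM.

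Imprinted genes, of which only the maternal or only the paternal copy is used, were largely higher in the hypothalamus. Of 34 listed, Peg13 and Snrpn were not analysed here. Of the 32 tested, 26 were higher, 2 lower and 4 not different, 13 were marked higher and 0 lower, and 19 were highest in the hypothalamus of all 28 animals. The median log2 difference was 1.005, and the summed level was 12700 to 15900 CPM in the hypothalamus against 5960 to 8650 CPM in the cortex and 6360 to 9200 CPM in the hippocampus, without overlap. Meg3, a long non-coding RNA, made the greater part of this sum, with medians of 4941, 4798 and 7419 CPM in cortex, hippocampus and hypothalamus and a log2 difference of 0.66 (SE 0.04).

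Asb4, used from the maternal copy, had the largest difference of the list, 4.61 (SE 0.10), and ran from 10.3 to 27.8 CPM. Of the genes named next, Magel2, Ndn, Peg10, Dlk1 and Peg3 are used from the paternal copy. Magel2, a gene of the Prader-Willi region, ran from 31.9 to 65.7 CPM in the hypothalamus, with medians of 0.924 CPM in the cortex and 4.26 CPM in the hippocampus, and a log2 difference of 4.58 (SE 0.07, edgeR adjusted p = 1.17e-55). Its neighbour Ndn differed by 1.49 (SE 0.02). Peg10 ran from 191 to 412 CPM against medians of 18 and 22.3 CPM, a log2 difference of 3.76 (SE 0.05). Dlk1, at the locus of Meg3, had a log2 difference of 4.58 (SE 0.09). Peg3 and its neighbour Zim1 differed by 1.16 (SE 0.04) and 3.43 (SE 0.05). Cdkn1c, used from the maternal copy, was lower, with a log2 difference of -1.07 (SE 0.05). Without strand, reads of Kcnq1ot1 and Airn cannot be told from those of the genes they run antisense to.

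Markers of glia and vessels mostly differed by little, with some astrocyte genes as exceptions. Of 12 oligodendrocyte markers, 11 were higher and 0 lower, but the median log2 difference was 0.23 and none differed 2-fold from both regions. Their summed level in the hypothalamus, 3720 to 7910 CPM, covered the range of the hippocampus, 4220 to 7450 CPM, and lay mostly above that of the cortex, 2450 to 4620 CPM. Of 9 microglia markers, 0 were higher and 6 lower, and of 7 endothelial markers 0 were higher and 6 lower, with median log2 differences of -0.13 and -0.22. Of 11 astrocyte markers, 6 were higher, 2 lower and 3 not different. The astrocyte genes marked higher were Agt, the angiotensin precursor, Itih3 and Slc6a11, a GABA transporter. Agt ran from 123 to 292 CPM in the hypothalamus, with medians of 4.55 CPM in the cortex and 52.1 CPM in the hippocampus, a log2 difference of 3.50 (SE 0.05). Slc1a2, the main astrocyte glutamate transporter, was lower, with a log2 difference of -0.95 (SE 0.03).

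Markers of ependyma and tanycytes, cells of the ventricle walls, were higher in part. Of 9 such markers tested, 6 were higher, 2 lower and 1 not different. Their summed level had a median of 134 CPM in the hypothalamus, 152 CPM in the hippocampus and 104 CPM in the cortex. Gpr50, a receptor of tanycytes, ran from 3.46 to 17.5 CPM in the hypothalamus, with medians of 0.340 CPM in the cortex and 0.390 CPM in the hippocampus. Ccdc153 and Tmem212, genes of ciliated ependyma, had log2 differences of 3.47 (SE 0.16) and 3.67 (SE 0.15). Frzb was marked lower. Of 11 choroid plexus markers, 3 were higher, 6 lower and 2 not different. Ttr, the most abundant of them, had a median of 5.98 CPM in the hypothalamus and 710 CPM in the hippocampus, and was at 274 CPM in the hypothalamus of animal 28.

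Pituitary and thalamus markers were high in single punches. Of the 9 pituitary markers, 4 could be tested and all 4 were higher, while Prl, Lhb, Fshb, Cga and Pou1f1 were too low. Gh (growth hormone) had a hypothalamus median of 0.208 CPM but 49.9 CPM in animal 5, 36.4 CPM in animal 6 and 25 CPM in animal 28, and it was at 59.2 CPM in the hippocampus of animal 6. Pomc, which pituitary cells also make, was at 24.9 CPM in animal 6 and 41.1 CPM in animal 28, within the range of the other libraries, and the part of pituitary RNA in it was not tested. Against the mean of cortex and hippocampus, 5 of 8 thalamus markers were higher, 0 lower and 3 not different. Their summed level had a median of 131 CPM in the hypothalamus, below the 252 CPM of the hippocampus and above the 48.5 CPM of the cortex. Of the 8, 0 were highest in the hypothalamus of all 28 animals. Prkcd was at 408 CPM in the hypothalamus of animal 6 against a median of 37.2 CPM.

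Lists of markers for 7 hypothalamic nuclei or areas were compared. Against the mean of cortex and hippocampus, all 6 markers of the paraventricular and supraoptic nuclei and all 3 of the lateral hypothalamus were higher. So were all 3 of the ventromedial nucleus, all 5 of the mammillary nuclei and all 3 of the tuberomammillary nucleus. In the same order, 5, 2, 2, 4 and 2 of them were marked higher. Lhx9, of the lateral hypothalamus list, had a higher median in the hippocampus than in the hypothalamus. Of 6 arcuate markers tested, 5 were higher and Npy was lower, and of 5 suprachiasmatic markers 4 were higher and Vip was lower. Marked higher were 4 of the arcuate and 3 of the suprachiasmatic markers. The summed levels differed widely between animals, from 149 to 1360 CPM for the paraventricular and supraoptic list and from 26 to 243 CPM for the lateral hypothalamus list.

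The hypothalamus of animal 3 was the lowest of all 28 for the mammillary markers Foxb1, Lmx1b and Barhl1. Foxb1 was at 1.32 CPM there against a median of 4.37 CPM, Lmx1b at 0.544 CPM against 4.17 CPM, and Barhl1 at 0.449 CPM against 2.24 CPM. That of animal 10 went the other way. It was the lowest for Pmch, Hcrt, Avp, Oxt, Trh, Crh and Cartpt and the highest for Foxb1 with 11.4 CPM, Hdc with 30.5 CPM, Wif1 with 5.77 CPM and Sim1 with 14.7 CPM. That of animal 6 was the lowest for Nr5a1, with 0.765 CPM against a median of 6.06 CPM, and for Fezf1, with 3.99 CPM against 9.57 CPM. Those of animals 21 and 29 were low in Avp, with 58.4 and 61.7 CPM, and in Oxt, with 62.2 and 47.8 CPM.

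Across the 28 hypothalamus libraries, 16 pairs of nucleus markers were compared, 8 within a nucleus and 8 between nuclei by the lists above. These lists place each gene under 1 heading only, so a gene made in several nuclei is not set apart. Log2 CPM were correlated, with a two-sided permutation test and p-values adjusted over the 16 pairs. Of the 8 pairs within a nucleus 7 were called, and of the 8 between nuclei 3. With Spearman's rho in place of r, 10 pairs were called again, but Pmch with Avp and Foxb1 with Barhl1 were lost, and Vip with Nms and Pmch with Agrp were gained. Avp and Oxt had r = 0.912 (permutation p = 1e-05, the smallest that the resampling can give, adjusted p = 8e-05) and rho = 0.856 (permutation p = 1e-05), and r was 0.865 without the 2 libraries farthest from the median of Avp. Nr5a1 and Fezf1 had r = 0.880 (permutation p = 1e-05, adjusted p = 8e-05) and rho = 0.886 (permutation p = 1e-05), and 0.864 without 2 libraries. Hdc and Wif1 had r = 0.745 (permutation p = 2e-05, adjusted p = 8e-05), rho = 0.828 (permutation p = 1e-05) and 0.783 without 2 libraries.

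Other coefficients changed more. Pmch and Hcrt had r = 0.881 (permutation p = 2e-05, adjusted p = 8e-05) and rho = 0.552 (permutation p = 0.00254), but r was 0.565 without the 2 libraries farthest from the median of Pmch and 0.639 without animal 10. Foxb1 and Barhl1 had r = 0.551 (permutation p = 0.00468, adjusted p = 0.00832), but rho was 0.296 (permutation p = 0.128) and r 0.217 without 2 libraries. Pmch and Avp, of different nuclei, had r = 0.630 (permutation p = 0.00162, adjusted p = 0.00518) and rho = 0.321 (permutation p = 0.095), and r was 0.354 (adjusted p = 0.0915) without animal 10, so this relation rested on that animal. Vip and Nms, both of the suprachiasmatic nucleus, had r = 0.371 (permutation p = 0.0528, adjusted p = 0.0704) and rho = 0.486 (permutation p = 0.00959). Foxb1 had r = -0.404 with Pmch (permutation p = 0.0466, adjusted p = 0.0677), and -0.083 without animal 10.

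Agrp and Pomc, of neighbouring arcuate neurons, had r = 0.540 (permutation p = 0.00288, adjusted p = 0.00658) and rho = 0.461 (permutation p = 0.0145), and r was 0.406 without 2 libraries. Agrp went along with Nr5a1 of the adjoining ventromedial nucleus too, with r = 0.535 (permutation p = 0.00267, adjusted p = 0.00658) and rho = 0.505 (permutation p = 0.00694), and the 2 coefficients were not tested against each other. The other called pair from different lists was Avp and Vip, with r = 0.525 (permutation p = 0.0043, adjusted p = 0.00832) and rho = 0.413 (permutation p = 0.0305). Without 2 libraries r was 0.368. Whether Avp and Vip were made in separate nuclei here was not tested. Sim1 and Otp had r = 0.473 (permutation p = 0.0111, adjusted p = 0.0178) and rho = 0.487 (permutation p = 0.00946).

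**Figure D3:**
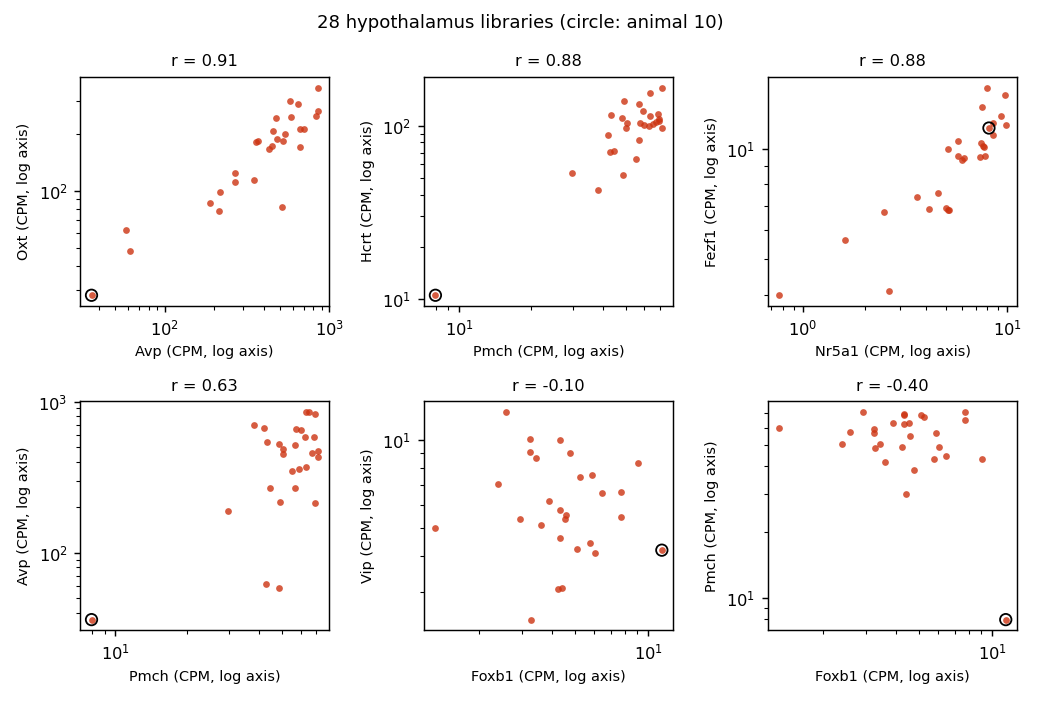
Levels of 6 pairs of nucleus markers in 28 hypothalamus libraries, in CPM on log axes, with Pearson's r of log2 CPM above each plot. Each point is 1 animal and the circle is animal 10, which lies at the low end of Avp, Oxt, Pmch and Hcrt and at the high end of Foxb1, and r runs from 0.91 for Avp and Oxt to -0.40 for Foxb1 and Pmch.

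Marked genes that were beyond both other regions in every animal, with a mean of at least 5 CPM where they were higher, were ranked by log2 difference. Genes without a symbol and those named by a Gm number or a Rik name were left out. The 12 with the largest log2 differences upward were Oxt, Hcrt, Avp, Pmch, Sim1, Calcr, Otp, Lhx8, Fezf1, Pgr15l, Irs4 and Cckar. Irs4, an insulin receptor substrate on chromosome X from 141710998 to 141725263, ran from 43.1 to 111 CPM in the hypothalamus, from 0.225 to 0.893 CPM in the cortex and from 1.02 to 5.53 CPM in the hippocampus. Its log2 difference was 5.995 (SE 0.09, edgeR adjusted p = 1.89e-55), without overlap. Cckar, the cholecystokinin receptor of the gut and hypothalamus, ran from 4.91 to 10.5 CPM against at most 0.119 and 0.920 CPM. Pgr15l, an orphan receptor gene on chromosome X, ran from 10.04 to 20.04 CPM against at most 0.193 and 1.35 CPM.

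The 12 with the largest differences downward included Neurod6, Slc17a7, Neurod2, Emx1, Ntn5, Adra1d, Rtn4rl2, Epop, Igfn1, Serpinb8 and Psrc1. Adra1d, an adrenergic receptor gene, ran from 1.05 to 5.13 CPM in the hypothalamus, 31.3 to 53.8 CPM in the cortex and 21.2 to 34.1 CPM in the hippocampus, a log2 difference of -3.85 (SE 0.08). Rtn4rl2, a receptor of the Nogo family, had a log2 difference of -3.83 (SE 0.13). Ntn5, a netrin, ran from 0.177 to 1.07 CPM against at least 5.53 and 5.31 CPM in the other regions, and in the annotation its exons share 23.4% of their bases with those of Sec1 on the opposite strand.

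**Figure D4:**
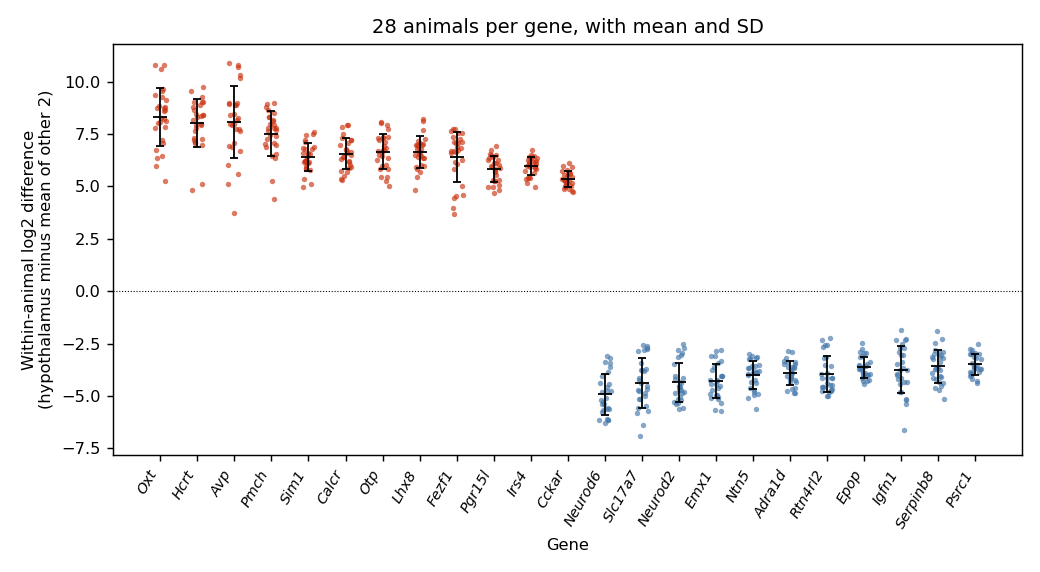
Within-animal log2 difference of the hypothalamus from the mean of cortex and hippocampus for the genes named with the largest differences in each direction. Each point is 1 of 28 animals, with the mean and SD, and all points of the higher genes lie above 0 and all points of the lower genes below 0. The genes had been chosen to be beyond both other regions in every animal, which fixed this in advance.

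Most marks were found in all animals, and some were not. Of the 785 genes marked higher, 564 (71.8%) were highest in the hypothalamus of all 28 animals, and of the 654 marked lower 440 (67.3%) were lowest there in all 28. Over all genes tested, 1532 (8.17%) were highest and 1686 (8.99%) lowest in the hypothalamus of every animal. At least 27 animals showed the direction for 661 of the genes marked higher and 513 of those marked lower, and the fewest animals for any gene were 10 and 13. For 334 of the genes marked higher (42.5%) the lowest hypothalamus library was above every cortex and hippocampus library, and for 303 of those marked lower (46.3%) the highest was below every one. Over all genes tested the latter separation was found for 690 (3.68%). The marked genes had been chosen for large differences in these same libraries, so a part of their higher shares is built in.

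Subsets of the animals were compared with the whole set, which holds them, so a part of the overlap is built in. The 14 females alone gave 816 genes marked higher, of which 745 were among the 785, or 94.9% of these and 91.3% of the female genes. The 14 males alone gave 729, of which 706 were shared, or 89.9% and 96.8%. Animals with large network sizes alone gave 830 with 751 shared (95.7% and 90.5%), and those with small network sizes 750 with 716 shared (91.2% and 95.5%). For the genes marked lower, the share of the 654 found again was 92.5% in females, 91.4% in males, 94.5% with large and 85.3% with small network sizes. Without animal 10 there were 813 genes, which held 782 of the 785, and without animal 6 there were 787, which held 776.

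The size of a mark varied between animals more for some genes than for others. The SD over animals of the within-animal log2 difference had a median of 0.471 among the genes marked higher, against 0.191 over all genes tested. Among the genes marked higher with a mean of at least 5 CPM in the hypothalamus, the 5 most even were Isoc1, Ankrd6, Ap1s2, Gad2 and Bex1, with SDs of 0.109, 0.134, 0.135, 0.136 and 0.138. Isoc1 ran from 49.6 to 71.0 CPM in the hypothalamus and from 19.3 to 32.5 CPM over both other regions. Under the same limit, the 5 most uneven were Slc6a3, Avp, Chrna6, Oxt and Pomc, with SDs of 2.12, 1.72, 1.61, 1.396 and 1.22. The within-animal difference of Slc6a3 ran from 0.15 to 7.52, and that of Chrna6, a nicotinic receptor subunit of dopamine neurons, from -1.50 to 5.04. The uneven genes were peptide genes and markers of dopamine neurons, and the even ones included Gad2, a gene of GABA neurons. These SDs also hold the spread of the reference regions. Taken per region, the SD of log2 CPM for Oxt was 0.863 (hypothalamus), 1.011 (cortex) and 1.213 (hippocampus). Avp had 1.17, 1.348 and 1.459 in this order, and raw cortex counts of Oxt were only 1 to 42. Slc6a3 had 2.245, 0.815 and 1.451, Chrna6 1.433, 0.557 and 0.629, and Pomc 0.965, 0.483 and 1.291. The cause of the unevenness was not tested.

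Single animals contributed unequally to the extremes. The hypothalamus of animal 6 was the lowest for 215 of the 785 genes marked higher, and that of animal 10 was the lowest for 98 and the highest for 115. The median within-animal difference of these genes ran from 1.63 in animal 6 to 2.12 in animal 22. For the genes marked lower, animal 7 had the highest hypothalamus level for 132 of 654, and the median difference ran from -1.92 in animal 1 to -1.32 in animal 7. Slc17a7 was at 281 CPM in the hypothalamus of animal 7, the highest value of the region.

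The reference region mattered. Of the genes marked higher, 671 of 785 (85.5%) differed more from the cortex than from the hippocampus, with median log2 differences of 2.25 and 1.46. Of those marked lower it was 511 of 654 (78.1%), with medians of -1.95 and -1.52. Nts (neurotensin) is an example, with medians of 0.249 CPM in the cortex, 5.20 CPM in the hippocampus and 30.6 CPM in the hypothalamus. At the threshold, Arhgap24 was just inside with log2 differences of 1.84 from the cortex and 1.0 from the hippocampus, and Ctxn2 just outside with 1.81 and 0.998. Among the genes lower, AI847159 was just inside with -1.88 and -1.0, and Cdh12 just outside with -1.52 and -0.998.

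By position and type, the marked genes were not evenly spread. Of 679 genes tested on chromosome X, 59 (8.69%) were marked higher, against 1.81% on chromosome 16 to 5.07% on chromosome 9 among the autosomes. Of the 59, 53 were highest in the hypothalamus of all 28 animals, and they included Irs4, Brs3, Gpr50, Pgr15l, Bex1 and Ap1s2. On chromosome X 9 genes (1.33%) were marked lower. Among lincRNA genes 4.22% were marked higher and 7.60% lower, and among protein-coding genes 4.26% and 3.20%.

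The stability of the marks between the sexes was tested as the difference between males and females in the hypothalamus contrast. Of 18753 genes, 1 (0.00533%) had an adjusted p under 0.05, and 820 (4.37%) an unadjusted p under 0.05. This gene was Greb1 (chromosome 12 from 16670615 to 16800886), which estrogen is known to induce. In the hypothalamus Greb1 ran from 2.97 to 4.54 CPM in females with a median of 3.81 CPM, and from 4.22 to 9.05 CPM in males with a median of 6.46 CPM. The sexes overlapped only between 4.22 and 4.54 CPM. In the cortex the medians were 6.08 CPM in females and 5.79 CPM in males, and in the hippocampus 2.28 and 2.42 CPM.

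The difference between the sexes in the log2 contrast of Greb1 was 0.78 (SE 0.11, edgeR adjusted p = 6.38e-05), with within-animal differences of 0.74 ± 0.34 (SD) in the 14 males and -0.02 ± 0.31 (SD) in the 14 females. It was present at both network sizes. With large network sizes the hypothalamus median was 3.84 CPM in females and 7.19 CPM in males, and with small ones 3.46 and 5.96 CPM. No other gene passed. Greb1 itself was not among the marked genes, and its log2 difference from the cortex was -0.26, so no marked gene passed the sex test. Peg10 and Otp were next by p, with differences of -0.43 (SE 0.10) and -1.16 (SE 0.26), and edgeR adjusted p = 0.28 for each.

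For network size, again 1 of 18753 genes (0.00533%) had an adjusted p under 0.05, and 568 (3.03%) an unadjusted p under 0.05. Sult5a1, a sulfotransferase gene (chromosome 8 from 123140192 to 123158315), ran from 0.0710 to 1.39 CPM in the hypothalamus of animals with large network sizes with a median of 0.236 CPM, and from 0.177 to 3.26 CPM with small ones with a median of 1.79 CPM. In the cortex the medians were 0.124 and 0.185 CPM and in the hippocampus 0.650 and 0.790 CPM. Sult5a1 was not among the marked genes either, with a log2 difference from the hippocampus of 0.28 (edgeR adjusted p = 0.275). The difference between small and large in the log2 contrast was 1.93 (SE 0.35, edgeR adjusted p = 0.0194). The adjusted p was 0.0642 without the animal block and 0.0607 without animal 19, a female with large network size whose hypothalamus RNA had the lowest integrity in the study's methods.

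The hypothalamus levels of Sult5a1 fell into separate ranges. In 13 libraries it was at most 0.387 CPM, and in the other 15 at least 1.35 CPM. Of the 13, 11 were from animals with large and 2 from animals with small network sizes, and of the 15, 3 and 12. All 7 females with small network sizes were at 1.68 CPM or more, and among males with small network sizes 2 of 7 were low. The hippocampus libraries, from 0.265 to 1.05 CPM, showed no such gap.

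**Figure D5:**
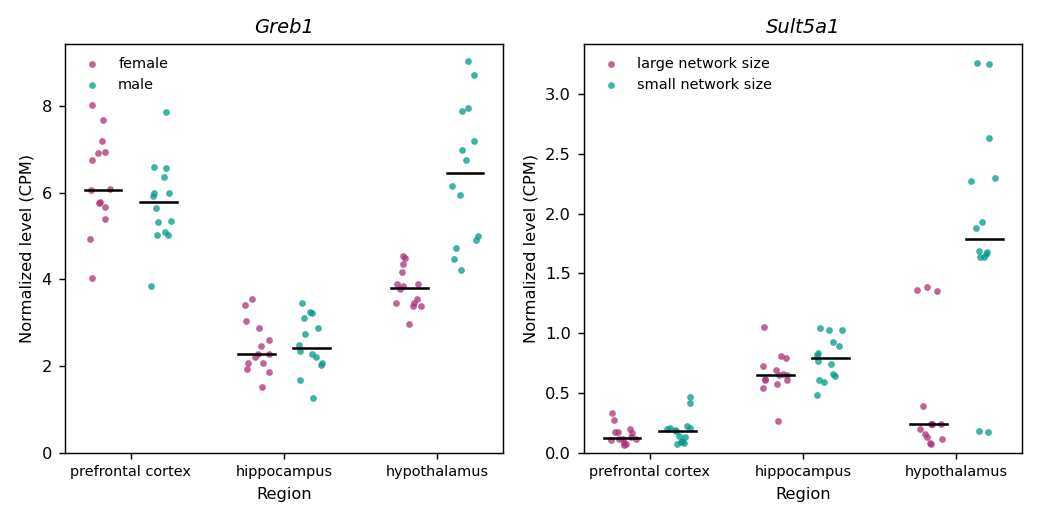
Levels of Greb1 by sex and of Sult5a1 by social network size in the 3 regions, in CPM on linear axes. Each point is 1 library, with 14 per group, and lines are medians, and the hypothalamus is the region where the groups part, with Greb1 medians of 3.81 CPM in females and 6.46 CPM in males and Sult5a1 medians of 0.236 CPM with large and 1.79 CPM with small network sizes.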

How the data were processed

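RNA from punches of 3 brain regions had been sequenced, and the authors deposited 1 table of raw read counts per gene, not normalized, with 35275 genes, of which 34490 matched GENCODE vM21. The aligner settings and the strand setting of the counting are not given in the sources used here. Columns were assigned to samples by name. Counts were tested with edgeR 4.0.16 in R 4.3.3 (TMM, filterByExpr with a minimum count of 10, quasi-likelihood F-test), with region and animal as terms and Benjamini-Hochberg adjustment. Log2 CPM used a prior count of 2. The labels give the same animal number to the 3 regions of an animal, and the deviations of same-numbered libraries from their region means correlated at 0.229 to 0.598 in all 28 animals. Sex and network size were tested as interactions with the region contrast. Replicates are separate animals.

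Genes named in the text were 5 given markers, members of the lists beside their list's count, and genes past the interaction tests. Named too were the 12 marked genes with the largest differences in each direction and the 5 most and 5 least variable genes marked higher. The 12 were beyond both other regions in 28 of 28 animals. A mean of at least 5 CPM where the gene was higher was asked of all ranked genes, and Gm numbers, Rik names and genes without a symbol were left out. Genes at a threshold, and genes that overlap others in the annotation, were named after their values were seen. A few genes that these rules select are not reported here. The members and lists were chosen with earlier results of these data known. Alternatives were DESeq2 1.42.0, other filters, other folds, no block, and animals left out. Correlations and their permutation tests used numpy 2.4.6 with 100000 resamples, and scipy 1.17.1 gave the ranks and the adjustment of p-values. Figures were drawn with matplotlib 3.10.9.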

Additional observations from a re-analysis of the deposited data

Results flagged for a closer look

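Greb1 was singled out because its difference between hypothalamus and the other regions itself differed between the sexes, by 0.778 on the log2 scale (males minus females, edgeR adjusted p = 6.38e-05). The hypothalamus level of Greb1 was higher in males, while the cortex and hippocampus medians of the sexes were close. Over the alternatives that kept both sexes this value ran from 0.763 to 0.826, with adjusted p from 4.72e-08 to 0.00189. In the annotation, exons of Greb1 share 7.68% of their bases with Gm48140 on the opposite strand.

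Sult5a1 was singled out because its hypothalamus difference differed between network sizes, by 1.932 on the log2 scale (small minus large, edgeR adjusted p = 0.0194). Over the alternatives the value ran from 1.784 to 2.051, with adjusted p from 0.000196 to 0.0642. It was not called without the animal block or without animal 19.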

How the results depend on the processing

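The counts of genes that differed kept within 1.5 times of their values under DESeq2's size factors and Wald test, without animal 12, 19, 10 or 6, and in either sex or network size alone, with these exceptions. Asking for 4-fold in place of 2-fold left 190 genes marked higher and 147 marked lower, and testing all genes with at least 1 count gave 1320 and 1017. The marked counts under DESeq2's Wald test were 803 and 650. Without the animal block, 14094 genes differed from the mean of the other regions in place of 15013, 770 were marked higher and 647 lower, 6 genes passed the sex test and 3 the network size test. Sult5a1 was not among the latter, which were the muscle genes Ckm, Myh1 and Myh4. Without animal 19, 0 genes passed the network size test (edgeR), where Sult5a1 had an adjusted p of 0.0607. Greb1 had a log2 difference of -0.01 in the 14 females alone. The causes were not tested. Animal 12 was left out because its hippocampus and hypothalamus entries in the study's mapping table appear to be swapped, and the count columns were used as labelled. In these columns its hypothalamus differed from the mean of its other regions by 7.78 for Pmch, 7.91 for Hcrt and -5.39 for Neurod6 on the log2 scale. Leaving out animals 10 and 6 was chosen after seeing the data, and without animal 10, 9 of 16 marker pairs were called in place of 10. Genes near the low end, such as Npvf and Nmu, are limited by counts.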

Other observations

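Ly6c1, an endothelial surface antigen gene, was near 0 in all 3 regions of animals 21 and 22. It was at 0.301 and 0.296 CPM in the cortex, 0.908 and 0.317 CPM in the hippocampus, and 0.546 and 0.381 CPM in the hypothalamus of these animals, against medians over 28 animals of 38.1 CPM in the hippocampus and 32.5 CPM in the hypothalamus. Animal 12 had 14.1, 11.1 and 9.23 CPM in the same order. The dopamine transporter gene Slc6a3 was also seen in some hippocampus libraries, with 23.8 CPM in animal 20, 20.9 CPM in animal 4, 16.5 CPM in animal 6 and 14.9 CPM in animal 16.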
